A study of Mus musculus with 6 samples.

Results

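The PI3K, AKT and mTOR pathway genes described here are a list of 36 genes, each given by name. A gene counted as measured when the array annotation gave a probe cluster that carried its symbol and no other, and where a gene had several clusters the brightest was to be used. By that rule 33 of the 36 genes were measured among 30142 genes in all, each by 1 cluster. Akt1s1, which encodes an AKT substrate that inhibits mTOR complex 1, shares its cluster with the microRNA gene Mir707 and was left out. The insulin receptor gene Insr and the S6 kinase gene Rps6kb1 were not analysed here.

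RNA was read on Affymetrix MTA 1.0 whole-transcript arrays from tumour cells sorted from allografts of MCRedAL in male mice, 1 array per tumour. MCRedAL is a single mouse prostate cancer line, derived from the Myc-driven Myc-CaP line, that carries the red fluorescent protein mCherry. The untreated group (titled Intact, androgen present) had 3 tumours. The degarelix group (titled 7dPC, a tag the labels do not explain) also had 3, from mice given the gonadotropin-releasing hormone antagonist degarelix under the skin once tumours were about 500 mm2, which withdraws testicular androgen. Both groups carry the same line and were sorted alike, as mCherry positive cells without the leukocyte and myeloid antigens CD45, F4/80 and CD11b. Strain and age were not given in the labels.

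Phosphoinositide 3-kinase (PI3K) is switched on by growth factor receptors and their adaptors and makes a membrane lipid that recruits the kinases PDK1 and AKT. AKT then restrains the FOXO transcription factors and the TSC complex, which frees the GTPase RHEB to activate mTOR complex 1, the driver of protein synthesis through the S6 kinases and the binding proteins of the cap factor eIF4E. In prostate cancer this pathway and the androgen receptor are known to restrain each other, in part through FKBP5, an androgen-induced chaperone that holds the AKT phosphatase PHLPP on its target. The comparison of the treated with the untreated tumours asked whether transcripts of the pathway shift when androgen is withdrawn. Arrays read RNA, so phosphorylation and kinase activity were not measured.

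All levels are deposited log2 values and all changes are degarelix minus untreated on that scale, with the moderated standard error (SE) of limma. A change was called when the adjusted p (Benjamini-Hochberg over all genes, limma) was under 0.05. The 23 background probe sets of the array reached 6.93, and 23 of the 33 pathway genes had a mean level above that value, against 30.4% of all genes. The other 10 lay within the background range, where arrays can compress changes. They were Irs1, Grb10, Pik3cd, Pik3r1, Pik3r3, Pik3ip1, Inpp5d, Sgk3, Foxo4 and Tsc1. The means of the background probe sets had a median of 3.26, far below that limit. How far changes were compressed at each level was not examined. Untreated replicate 1 stood apart in markers of other cell types. It was the highest array for 9 of 12 leukocyte markers, whose mean log2 level was 6.24 there, 5.26 and 5.66 in the other untreated arrays and 5.33 to 5.39 after degarelix. All 12 had mean levels within the background range over the 6 arrays, and 0 were called. The sum of the log2 values of these markers was 63.1 to 74.8 in untreated and 64 to 64.7 in degarelix arrays. All 7 fibroblast markers measured were highest in degarelix replicate 3, with summed log2 values of 53.5 to 55.9 in untreated and 56.6 to 61.8 in degarelix arrays. Of 6 endothelial markers 5 were highest on untreated replicate 1, and 1 (Vwf) fell after degarelix. Of 9 epithelial markers 1 rose (Krt14, by 0.38, within the background range), 1 fell (Cldn3, by 0.31) and 7 did not pass. Their summed log2 values were 64.5 to 67.2 in untreated and 66.3 to 67.1 in degarelix arrays. Krt8, Cldn3 and Cldn4 were bright, while Epcam (3.79 to 3.98), Cdh1 (4.80 to 5.07) and Krt18 (5.38 to 5.82) lay within the background range on every array.

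Of the 33 genes measured, 1 rose, 2 fell and 30 did not pass the test. The mTOR kinase gene Mtor fell by 0.80 (SE 0.08), a 1.74-fold difference, and Deptor, which encodes an inhibitor that binds mTOR in both of its complexes, rose by 1.04 (SE 0.10), a 2.06-fold difference. The other fall was that of Irs1, an insulin receptor substrate gene, by 0.41 (SE 0.11) at a level within the background range. The share called in this fit was 9.09% of the pathway genes against 11.7% of all genes tested (4.19% higher and 7.51% lower). Which of these shares was larger depended on the setting, as given below. The median change was -0.06 over the pathway genes and 0.04 over all genes, with 12 pathway genes above 0 and 21 below. At an unadjusted p under 0.05 there were 11 of 33, against 7887 of all 30142 genes. For 12 of the 33 (36.4%) the 3 treated values did not overlap the 3 untreated ones, against 31.2% of all genes. The 95% interval of each of the 30 uncalled genes lay inside a 1.5-fold change in either direction, and these intervals are not adjusted for the number of genes. For uncalled genes within the background range, where changes may be compressed, a narrow interval does not by itself bound the change in RNA. The size of the called set depended on scaling. Under cyclic loess 3 genes were higher and 2 lower, 15.15% of the pathway genes against 11.79% of all genes. Under quantile normalization 4 were higher and 2 lower, 18.18% against 12.17%. With each array centred on its median 1 was higher and 3 lower, 12.12% against 8.725%. With array weights fitted per gene, a setting that called 9912 of all genes (32.88%), 13 pathway genes were called (39.39%). Of these, 5 were higher (Deptor, Grb10, Pik3ip1, Akt2 and Foxo1) and 8 lower (Mtor, Irs1, Pik3r1, Pik3r3, Tsc2, Rptor, Mlst8 and Eif4ebp1). Without untreated replicate 1 there were 1 higher and 3 lower, 12.12% against 15.59%. In the test against a 1.2-fold change the shares were 6.061% and 2.485%.

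**Figure D1:**
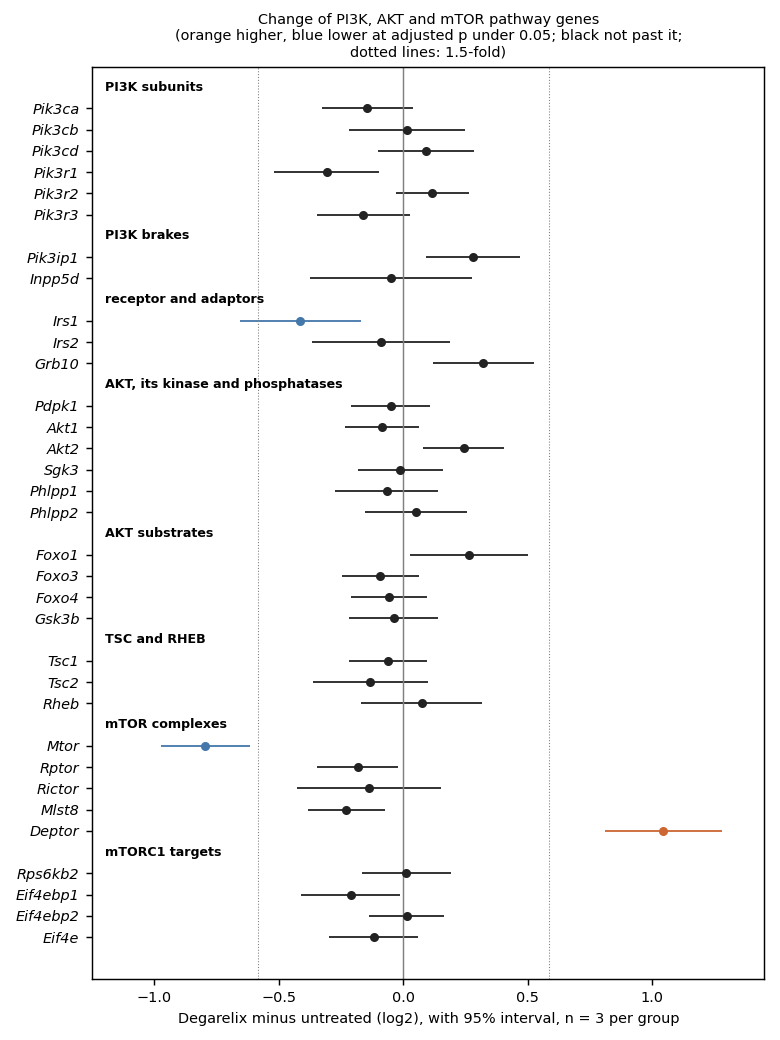
Change of each of the 33 measured genes (x axis, degarelix minus untreated in log2 units) with its 95% interval, grouped by role; n = 3 arrays per group. Mtor at -0.80 and Deptor at 1.04 stand outside the dotted lines of a 1.5-fold change, the interval of Irs1 crosses the lower line, and all other intervals lie between the lines.

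The promoters of the 2 genes that fell are shown because they were the called members of this list with an entry in the promoter table used (RefSeq, GRCm38.p6). Each is the stretch of 250 bases just before the gene's start, 5′ to 3′ on the gene's strand, with capitals marking a match to any of 4 motifs searched on both strands. The motifs were the Myc E-box CACGTG, the androgen receptor hexamer AGAACA, the FOXO site TGTTTAC and the E2F site TTTGGCGC, none of which overlapped another here. Mtor lies on the plus strand at chr4:148448332-148448581 and Irs1 on the minus strand at chr1:82291440-82291689.
Mtor: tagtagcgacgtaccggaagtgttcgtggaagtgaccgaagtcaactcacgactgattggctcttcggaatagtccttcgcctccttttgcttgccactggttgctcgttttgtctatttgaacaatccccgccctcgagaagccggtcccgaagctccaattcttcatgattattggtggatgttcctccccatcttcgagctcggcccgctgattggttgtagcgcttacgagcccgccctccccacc
Irs1: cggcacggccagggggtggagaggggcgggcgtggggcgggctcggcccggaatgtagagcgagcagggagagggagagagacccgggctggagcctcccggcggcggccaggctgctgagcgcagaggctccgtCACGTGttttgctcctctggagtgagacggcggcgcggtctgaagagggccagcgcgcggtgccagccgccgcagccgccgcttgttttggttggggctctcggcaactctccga
The Mtor window held none of the 4 motifs, and the Irs1 window held 1 Myc E-box. Of 32851 promoter windows in the table, 6.02% held the E-box, 16.1% the androgen receptor hexamer, 3.17% the FOXO site and 0.417% the E2F site. Of the 33 pathway genes 28 had an entry, with 40 windows. Counted by window, like the shares above, 4 of the 40 held the E-box (Eif4e, Irs1, Irs2 and Rheb) and 1 the androgen receptor hexamer (Pik3cd). Of the same windows 1 held the FOXO site (Akt1) and 0 the E2F site. A match says only that the letters are present, and no match says only that they are not in this window. Deptor had no entry.

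At the receptor end, the adaptor genes did not move as a group. Irs1, which links insulin and IGF receptors to PI3K, read 5.31, 5.33 and 5.00 in untreated replicates 1 to 3 and 4.66, 4.85 and 4.89 in degarelix replicates 1 to 3. The treated values all lay below the untreated ones, with a gap of 0.11 between untreated replicate 3 and degarelix replicate 3, less than the SD of either group (0.18 and 0.12). Its call (limma adjusted p = 0.0389) was the weakest among the called pathway genes and was lost on leaving out any sample other than untreated replicate 3 (0.0527 to 0.146). Irs2, its paralog, was far brighter and read 10.79, 10.37 and 10.33 in untreated and 10.44, 10.33 and 10.45 in degarelix tumours. The groups overlapped, untreated replicate 1 stood above the other 5 arrays, and the change was -0.09 (95% interval -0.37 to 0.19). Grb10, an adaptor that inhibits insulin and IGF receptors and is itself a substrate of mTOR complex 1, read 6.01, 5.96 and 6.01 in untreated and 6.33, 6.15 and 6.47 in degarelix tumours. All treated values were higher, by 0.32 on average (SE 0.09), but the change just missed the threshold (limma adjusted p = 0.0518, and 0.0396 without degarelix replicate 2).

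None of the 6 PI3K subunit genes passed the test in limma, and 1 (Pik3r1) had an unadjusted p under 0.05. Pik3ca, the catalytic subunit most often mutated in tumours, read 7.32, 7.20 and 7.29 in untreated and 7.08, 7.05 and 7.25 in degarelix tumours, a change of -0.15 (95% interval -0.33 to 0.04). Pik3cb, the other catalytic subunit common outside blood cells, was at 7.21 ± 0.17 and 7.23 ± 0.12 (mean ± SD, n = 3 per group), a change of 0.01. The leukocyte-enriched catalytic subunit gene Pik3cd stayed within the background range at 6.08 to 6.33 on all arrays. Pik3r1, the main regulatory subunit, which stabilises and restrains the catalytic one, read 6.90, 6.76 and 6.80 in untreated and 6.35, 6.52 and 6.66 in degarelix tumours. Its groups did not overlap, yet its change of -0.31 (SE 0.09) did not pass (limma adjusted p = 0.0651), except with array weights fitted per gene (-0.29, limma adjusted p = 0.0135) and without degarelix replicate 3 (-0.38, adjusted p = 0.0334). The alternative regulatory subunit gene Pik3r2 read 8.10, 8.10 and 8.17 in untreated and 8.22, 8.23 and 8.26 in degarelix tumours, a change of 0.12 that had no overlap but was small (adjusted p = 0.289). Under quantile normalization it was 0.20 and passed (adjusted p = 0.0496). Pik3r3, another regulatory subunit, was at 5.73 ± 0.03 and 5.57 ± 0.13, within the background range, a change of -0.16 (SE 0.08).

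Neither of the 2 genes of this list that restrain PI3K signalling at the membrane passed. Inpp5k, a lipid phosphatase gene outside the list, rose and is described below. Pik3ip1, a transmembrane protein that binds and inhibits the catalytic subunits, read 6.53, 6.38 and 6.53 in untreated and 6.84, 6.81 and 6.63 in degarelix tumours. Its groups did not overlap, with a change of 0.28 (SE 0.08, limma adjusted p = 0.0658), and it passed without degarelix replicate 3 (0.34, adjusted p = 0.0347). Inpp5d, which encodes the lipid phosphatase SHIP1 of blood cells, read 5.72, 5.16 and 5.22 in untreated and 5.38, 5.38 and 5.20 in degarelix tumours. Its highest value was on untreated replicate 1, the array with the highest leukocyte markers. The mean levels of Inpp5d and of all those markers lay within the background range. The part of leukocytes in the level of Inpp5d was not tested. In bulk samples such as these, fewer cells of a type and less RNA per cell cannot be told apart.

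Neither AKT gene measured passed the test. Akt2 read 9.09, 9.17 and 9.25 in untreated and 9.44, 9.36 and 9.43 in degarelix tumours, higher in all treated arrays by 0.24 (SE 0.07, limma adjusted p = 0.0623). Akt1 read 8.88, 8.79 and 8.87 in untreated and 8.77, 8.79 and 8.72 in degarelix tumours, a change of -0.09 (SE 0.07, limma adjusted p = 0.43), with groups that met at 8.79 without overlapping. Both values depended on scaling. The change of Akt1 was 0.01 under cyclic loess, so its sign turned. That of Akt2 was 0.35 under cyclic loess (limma adjusted p = 0.00899) and 0.30 under quantile normalization (0.017), both past the threshold. Whether the changes of Akt1 and Akt2 differ was not tested. Pdpk1, which encodes PDK1, the kinase that activates AKT, was at 7.48 ± 0.06 and 7.43 ± 0.05. Sgk3, an AKT-related kinase, was the dimmest gene of the list at 3.46 to 3.63, so nothing can be said of its change.

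The PHLPP phosphatases, which remove an activating phosphate from AKT, showed no called change. Phlpp1 read 7.06, 7.06 and 7.04 in untreated and 7.03, 6.80 and 7.12 in degarelix tumours. Phlpp2 read 7.42, 7.73 and 7.63 in untreated and 7.62, 7.60 and 7.72 in degarelix tumours. The groups overlapped for both genes, with changes of -0.07 (95% interval -0.27 to 0.14) and 0.05 (-0.15 to 0.26). Fkbp5, the androgen-induced chaperone gene of the PHLPP and AKT complex, fell in the same arrays: it read 8.53, 8.65 and 8.60 in untreated and 8.01, 7.98 and 8.08 in degarelix tumours, a change of -0.57 (SE 0.07, limma adjusted p = 0.00151), and was called under all 15 alternatives run.

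Among AKT substrates, Foxo1 read 7.45, 7.67 and 7.86 in untreated and 7.89, 7.96 and 7.93 in degarelix tumours. The treated arrays were tightly grouped (SD 0.03) just above the highest of the spread untreated values (SD 0.21). The change of 0.26 (SE 0.10) did not pass (limma adjusted p = 0.147), and did so under cyclic loess (0.32, adjusted p = 0.0476) and quantile normalization (0.34, adjusted p = 0.0453). The other FOXO genes had changes of -0.09 for Foxo3 and -0.06 for Foxo4, the latter at a level within the background range. Gsk3b, a kinase of glycogen and beta-catenin control that AKT inhibits, was at 8.37 ± 0.03 and 8.33 ± 0.12, a change of -0.04 (95% interval -0.22 to 0.14).

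The TSC and RHEB step showed no called change in limma, and 0 of its 3 genes had an unadjusted p under 0.05. Tsc2, whose product switches RHEB off, read 8.78, 9.12 and 9.12 in untreated and 8.88, 8.84 and 8.91 in degarelix tumours. Untreated replicate 1 was the lowest of all arrays and the other untreated ones the highest, so that the change was -0.13 (SE 0.10, limma adjusted p = 0.429) with it and -0.25 (adjusted p = 0.0469) without it. Tsc1, the partner that stabilises Tsc2, was at 6.75 ± 0.07 and 6.69 ± 0.03, within the background range. Rheb read 9.70, 10.04 and 10.07 in untreated and 9.93, 10.06 and 10.04 in degarelix tumours, again with untreated replicate 1 lowest, and its change was 0.07 (95% interval -0.17 to 0.31).

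The clearest changes were in the mTOR complexes. Mtor, the kinase shared by complexes 1 and 2, read 9.00, 9.03 and 9.18 in untreated and 8.22, 8.24 and 8.36 in degarelix tumours. The highest treated value lay 0.64 below the lowest untreated one, several times the spread within either group (SD 0.09 and 0.08), and the limma adjusted p was 5.68e-04. Deptor read 6.90, 6.54 and 6.81 in untreated and 7.69, 7.87 and 7.82 in degarelix tumours, with all treated values higher (limma adjusted p = 5.84e-04). Its untreated mean of 6.75 lay just within the background range, where differences may be compressed. Both genes were called under all 15 alternatives run, with changes of -0.84 to -0.70 for Mtor and 0.94 to 1.15 for Deptor and adjusted p of at most 0.00643. Of 7 fibroblast markers measured 2 rose in the same comparison (Dcn by 1.46 and Fbln1 by 1.07) and 5 did not pass, a share of 28.6% against 4.19% of all genes called higher. The change of Deptor was 1.03 without degarelix replicate 3, the array with the highest fibroblast markers, and the part of fibroblasts in its level was not tested. Without untreated replicate 1 the changes were -0.83 for Mtor and 1.12 for Deptor.

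The other subunits had smaller values, all below 0. Mlst8, a subunit of both complexes, read 7.66, 7.67 and 7.55 in untreated and 7.40, 7.38 and 7.42 in degarelix tumours, lower in all treated arrays by 0.23 on average (SE 0.07) without passing (limma adjusted p = 0.0642). It passed with each array centred on its median (-0.28, adjusted p = 0.0481). Rptor, the raptor subunit that brings substrates to complex 1, read 8.27, 8.31 and 8.32 in untreated and 8.06, 8.07 and 8.22 in degarelix tumours, also without overlap (-0.18, adjusted p = 0.147). Rictor, the defining subunit of complex 2, read 7.82, 7.64 and 8.01 in untreated and 7.44, 7.77 and 7.84 in degarelix tumours. Its groups overlapped, and its change of -0.14 had a 95% interval of -0.43 to 0.15. The intervals of these 3 genes reach no lower than -0.43, and that of Mtor lies between -0.97 and -0.62, though the difference between the genes' changes was not itself tested.

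**Figure D2:**
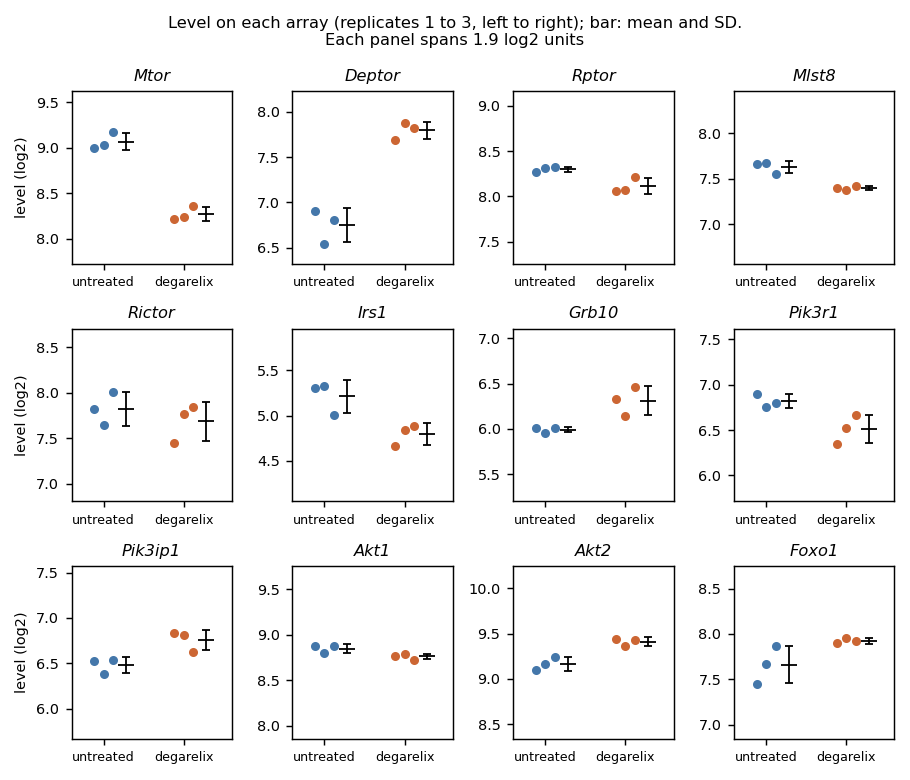
Level of 12 genes on each of the 6 arrays (y axis, log2; blue untreated, orange degarelix), with the mean and SD of each group of 3 beside the points; all panels span the same range. The groups are far apart for Mtor and Deptor, narrowly separated for Rptor, Mlst8, Irs1, Grb10, Pik3r1, Pik3ip1, Akt1, Akt2 and Foxo1, and overlap for Rictor.

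Downstream of complex 1 none of the 4 genes measured passed in limma, and 1 (Eif4ebp1) had an unadjusted p under 0.05. Eif4ebp1, which encodes the repressor of eIF4E that mTOR inactivates, read 9.94, 10.15 and 10.22 in untreated and 9.89, 9.94 and 9.85 in degarelix tumours. Untreated replicate 1 lay with the treated arrays. The change was -0.21 (SE 0.09, limma adjusted p = 0.166) with that array and -0.29 (adjusted p = 0.0323) without it. Eif4ebp2, its paralog, was among the steadiest genes at 9.43 ± 0.06 and 9.44 ± 0.01, a change of 0.01 (95% interval -0.14 to 0.16). The cap-binding factor gene Eif4e was at 9.71 ± 0.11 and 9.59 ± 0.05, and the S6 kinase gene Rps6kb2 at 7.98 ± 0.11 and 7.99 ± 0.04.

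**Figure D3:**
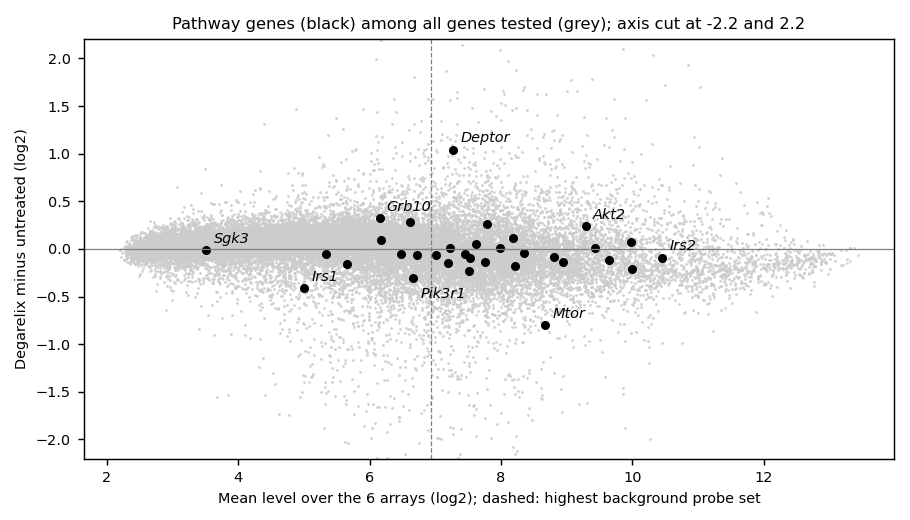
Change (y axis, degarelix minus untreated, log2) against the mean level over the 6 arrays (x axis, log2) for the 33 pathway genes in black and all 30142 genes in grey; the dashed line marks the brightest background probe set at 6.93. Mtor and Deptor lie to the right of that line and away from 0, Irs1 lies to its left, and most pathway genes sit in the body of the grey cloud.

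Genes that surround the pathway were read from lists of its receptors, other lipid enzymes, nutrient sensors and outputs. Of 14 measured receptor and androgen feedback genes (17 listed) 2 rose, 3 fell and 9 did not pass, a called share of 35.7% against 11.7% of all genes, with a median change of 0.05. Igf1r, the receptor for insulin-like growth factors and an input to Irs1, read 9.14, 9.08 and 9.04 in untreated and 8.24, 8.27 and 8.41 in degarelix tumours, and fell by 0.78 (SE 0.07, limma adjusted p = 4.92e-04). Erbb3, a receptor that couples directly to PI3K, fell by 0.51 (SE 0.10), a call lost under quantile normalization (adjusted p = 0.0523) and without degarelix replicate 2 (0.0546). Its partner Erbb2 read 8.76, 9.07 and 8.84 in untreated and 8.91, 8.79 and 8.83 in degarelix tumours, overlapping, with a change of -0.04 (95% interval -0.25 to 0.16). The receptor genes Fgfr1 and Met rose by 0.83 (SE 0.14) and 0.55 (SE 0.10). Both were highest on degarelix replicate 3, as the fibroblast markers were, and the part of fibroblasts in them was not tested.

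Of 17 other PI3K and phosphoinositide genes 1 rose, 1 fell and 15 did not pass; their median was 0.01. The called share of 11.8% was that of all genes (11.7%). Inpp5k, a lipid phosphatase that dampens insulin signalling, read 8.33, 8.32 and 8.29 in untreated and 8.90, 8.84 and 9.00 in degarelix tumours, a rise of 0.60 (SE 0.07, limma adjusted p = 0.00125) called under all alternatives run. Plekha1, which binds a product of PI3K lipid breakdown, fell by 0.35 (SE 0.09), a call lost with each array centred on its median (limma adjusted p = 0.0644) and when untreated replicate 2 or 3 or degarelix replicate 1 or 2 was dropped (0.104 to 0.127).

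All called genes among the nutrient and energy sensors that feed mTOR fell. Of 34 genes 0 rose in limma and 6 fell, a called share of 17.6% against 11.7% of all genes. Over all genes 4.19% were called higher and 7.51% lower, so falls were the more common call there too. An unadjusted p under 0.05 was reached by 13 of the 34, against 7887 of all 30142 genes. The median change was 0.03, with 18 changes above 0 and 16 below. Prkaa2, a catalytic subunit of the energy sensor AMPK, read 8.36, 8.40 and 8.50 in untreated and 7.34, 7.50 and 7.82 in degarelix tumours, and fell by 0.87 (SE 0.12, limma adjusted p = 0.00269). Depdc5, a subunit of the GATOR1 complex that silences mTOR complex 1 when amino acids are scarce, fell by 0.46 (SE 0.07). Rragb, a Rag GTPase that carries the amino acid signal, fell by 0.52 at levels within the background range (5.85 to 6.60), and the RHEB paralog Rhebl1 fell by 0.36. Telo2 and Tti1, partners in a co-chaperone that assembles mTOR and its sister kinases, fell by 0.26 and 0.31. The calls of these last 4 genes did not hold under all settings. Those of Rhebl1 and Tti1 were lost with each array centred on its median. That of Telo2 was lost under quantile normalization and with replicate numbers as a block. Telo2 and Tti1 were also not called with robust variances and an intensity trend. With untreated replicate 2 or 3 or degarelix replicate 1 or 2 dropped, 2 of the 34 were called each time, Prkaa2 and Depdc5. Of all genes, 5.275% to 7.01% were called in those fits.

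Among 16 translation and other effector genes 2 fell and the other 14 did not pass, with 8 changes above 0 and 8 below. The called share of 12.5% was near the 11.7% of all genes. Larp1, which binds the messages of ribosomal proteins under mTOR control, fell by 0.39 (SE 0.06), and the helicase cofactor gene Eif4b fell by 0.29 (SE 0.06). Neither passed under cyclic loess (limma adjusted p = 0.0516 and 0.224) or quantile normalization (0.0504 and 0.164), and the call of Eif4b was also lost when untreated replicate 2 or 3 or degarelix replicate 1 or 2 was dropped.

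Transcripts that FOXO factors or mTOR complex 1 are known to govern moved both ways. Of 22 measured FOXO targets 3 rose (Klf6, Trp53inp1 and Cited2) and 4 fell (Bnip3, Cat, Sod2 and Cdkn1b), a called share of 31.8% against 11.7% of all genes, with a median change of 0.05. Bnip3, a mitophagy receptor that hypoxia also induces, fell by 1.03 (SE 0.10). Trp53inp1, a p53 target as well, rose by 0.97 (SE 0.19) from untreated values of 6.04 to 6.35 that lay within the background range, so the size of this change is uncertain. Cat, which encodes catalase, fell by 0.60 (SE 0.11), a call lost without degarelix replicate 1 (limma adjusted p = 0.0568). The call of Cited2 was lost without any 1 of the degarelix arrays (limma adjusted p 0.0779 to 0.0953). Median centring of each array also removed the calls of Cited2 and Cdkn1b, and the replicate block that of Cdkn1b. Sod2 and Cdkn1b had mean levels within the background range, and both calls were lost when untreated replicate 2 or 3 or degarelix replicate 1 or 2 was dropped (0.0746 to 0.0862 for Sod2 and 0.0869 to 0.151 for Cdkn1b), that of Cdkn1b also without untreated replicate 1 (0.0747). Of 18 measured mTORC1-responsive transcripts 4 rose and 4 fell, 44.4% against 11.7% of all genes, with a median of -0.02. Those that fell included the mitochondrial folate enzyme genes Mthfd1l, at 8.01, 8.21 and 8.22 in untreated and 6.92, 7.07 and 7.04 in degarelix tumours (change -1.14, SE 0.08), Shmt2 (-0.79, SE 0.13) and Mthfd2 (-0.65, SE 0.13). Those that rose included the glucose transporter gene Slc2a1 by 0.67, the hexokinase gene Hk2 by 0.61 and Chac1, a glutathione-degrading enzyme of the stress response, by 0.45 (SE 0.08). The call of Mthfd2 was lost when untreated replicate 3 (limma adjusted p = 0.0548) or degarelix replicate 1 or 2 (0.0612 and 0.0514) was dropped. Each of these lists mixes genes with other known regulators.

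**Figure D4:**
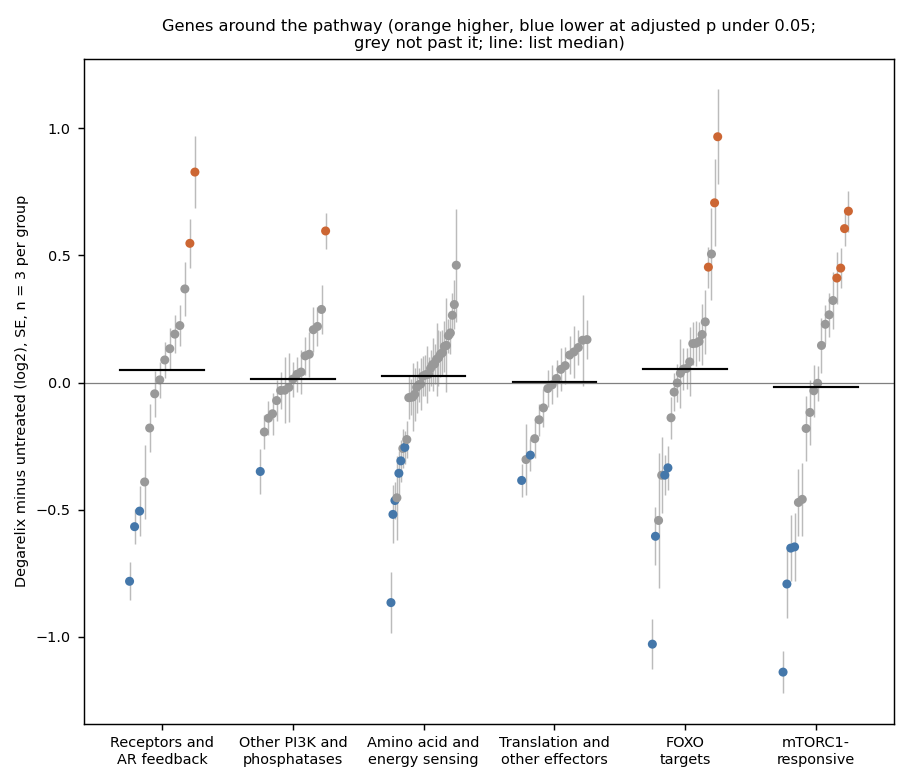
Change of each measured gene (y axis, degarelix minus untreated, log2, with SE, n = 3 per group) in 6 lists around the pathway, ordered by size within a list; the black line is the list median. Medians lie between -0.02 and 0.05, while called genes reach from -1.14 (Mthfd1l) to 0.97 (Trp53inp1, whose untreated values lay within the background range).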

How the data were processed

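RNA from 6 sorted tumours was read on 1 array each. The deposited values are log2 expression, made by the authors with Affymetrix Expression Console and RMA, per the submitters' processing notes (versions, settings and build: not given in the sources used here). This step removes background, equalises the arrays' distributions and sums up the probes of a cluster. The log2 scale was read from the values (1.96 to 13.7; array medians 4.70 to 4.84). Of 72688 rows, 6732 controls were left out. Of 65956 clusters, 30604 had 1 symbol, 2146 several and 33206 none; 827 symbols were updated by Entrez identifier (RefSeq, GRCm38.p6), and the brightest cluster per gene gave 30142 genes, with no filter on dim genes. The groups were compared in limma 3.58.1 (R 4.3.3; lmFit and eBayes, two-sided), adjusted over all genes, and the code was tested on simulated data. The number of arrays limits the precision. Nothing beyond the labels' words "biological rep" ties p-values to independent cultures of the line. No set test was run.

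The pathway genes and the surrounding lists were chosen with earlier results of these data known. Per-array values are given for called genes and for genes that define a role; of each surrounding list, up to 6 called genes with the smallest adjusted p were named, with any called gene that moved against the majority, and Fkbp5, Erbb2, Erbb3 and Igf1r by name. Cdkn1b and the called marker genes (Dcn, Fbln1, Vwf, Krt14 and Cldn3), outside that rule, were named after their values were seen, to complete counts. The fit was repeated with other scalings (cyclic loess, quantile, medians set to 0), robust variances with an intensity trend, array weights per gene, clusters averaged, dim genes dropped, replicate numbers as a block, each sample dropped, and against a 1.2-fold change. Tables and figures used Python 3.11.15, pandas 2.3.3 and matplotlib 3.10.9.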

Additional observations from a re-analysis of the deposited data

How the results depend on the processing

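Across the 15 alternatives, 465 of 495 values of single pathway genes kept their side of the threshold, 7 were no longer called, 23 became called and 0 called values changed sign; Mtor and Deptor were called in all. All 7 lost calls were those of Irs1. The number of pathway genes called higher (1) was 3 under cyclic loess, 4 under quantile normalization, 5 with array weights, 2 without dim genes, 2 with the replicate block and 1 to 2 on leaving out each sample. The number called lower (2) was 8 with array weights, 1 with the replicate block, 1 in the test against a 1.2-fold change and 1 to 3 on leaving out each sample. Of the pathway genes and of all genes, 12.12% and 13.86% were called without dim genes, and 9.091% and 12.63% with the replicate block. On leaving out each sample the shares were 6.061% to 12.12% and 5.275% to 15.59%. The weights called 9912 genes in all, against 3526, and gave degarelix replicate 2 a weight of 3.42 and degarelix replicate 3 one of 0.387. The test against a 1.2-fold change called 749 genes, and leaving out each sample 1590 to 4700 (2113 and 1972 with untreated replicate 2 or 3 dropped, 1590 and 1833 with degarelix replicate 1 or 2 dropped).

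Counts in the surrounding lists moved likewise, and the shares of all genes called under these settings are those given above. Array weights called 9 receptor, 6 other PI3K, 13 nutrient-sensing, 5 translation and 11 FOXO target genes. The test against a 1.2-fold change called 2, 1, 1, 0 and 1 of them, and 3 mTORC1-responsive transcripts. Median centring left 1 other PI3K gene, and cyclic loess and quantile normalization each left 0 translation genes. Leaving out each sample gave 4 to 7 receptor genes, 1 to 3 other PI3K genes, 2 to 7 nutrient-sensing genes, 1 to 4 translation genes, 3 to 7 FOXO targets and 6 to 9 mTORC1-responsive transcripts. The causes were not tested.

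Same-numbered samples of the groups had deviations that correlated at 0.163, 0.04 and 0.196. Every sample correlated best with its own number, but narrowly for number 2. Degarelix replicate 2 correlated at 0.029 with untreated replicate 1, and untreated replicate 2 at 0.018 with degarelix replicate 3. The correlations are not independent, since the deviations within a group sum to 0. The match is no more than a hint from the data, since the labels give no pairing. With the replicate number as a block 3806 genes were called, and of the pathway genes Grb10 was gained and Irs1 lost.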
